A study of Mus musculus with 23 samples.

Results

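The comparison described here is the loss of RAS in mouse embryonic stem cells that carried the ERF knockout label and had been held for 48 h in FA, a medium with 12 ng/ml FGF2 and 20 ng/ml Activin A that moves such cells toward epiblast-like cells. Its members are 6 RNA sequencing libraries of the 23 in the series, chosen by their labels alone: 3 with RAS deleted and 3 with RAS present. All 6 came from the line Raslox/lox, which carries Ubiq-CreERT2, a drug-inducible Cre under a ubiquitous promoter. The line is H-Ras-/- and N-Ras-/- by label, a genotype that both groups share. The RAS-deleted cells had received 4-hydroxytamoxifen for 6 days, which activates the Cre recombinase, and the RAS-present cells had not. The drug and the deletion therefore cannot be told apart. The other libraries covered the same cells with ERF wild type, and both ERF labels in 2iL, where LIF and inhibitors of MEK (PD0325901) and GSK3 (CHIR99021) hold cells in the naive state. The labels do not say whether the ERF knockout was 1 clone or several, nor whether replicates were separate cultures, so p-values measure the spread between these libraries, which may be technical.

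RAS proteins pass signals from FGF and other tyrosine kinase receptors through RAF and MEK to the kinase ERK. In pluripotent cells FGF signalling through ERK drives the exit from the naive state, and in the early embryo it favours primitive endoderm over epiblast. ERF is a repressor of the ETS family that binds the same DNA core as the ETS activators Etv4, Etv1 and Etv5, and ERK phosphorylates it and sends it out of the nucleus. Comparing RAS-deleted with RAS-present cells under the ERF knockout label asks which RNA changes follow the loss of RAS when that repressor is labelled as removed.

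The 6 libraries held between 22.8 and 29.1 M counts. The predicted gene Gm26917 took between 19.6% and 25.1% of each. Mitochondrial transcripts took between 3.65% and 3.99% of the RAS-present libraries and between 2.98% and 3.95% of the RAS-deleted ones. The first principal component over these 6 libraries held 77.1% of the variance and separated the groups. The second held 9.37% and set replicate 3 of each group apart from replicates 1 and 2. Erf, the gene labelled as knocked out, was still counted, at 50.7, 64.8 and 56.9 CPM (the count scaled to a common, TMM-adjusted library size) in the RAS-present replicates 1, 2 and 3 and at 49.3, 64.5 and 67.9 CPM in the RAS-deleted ones. A gene count does not resolve edits within a transcript, and ERF status is taken from the labels. Hras stood at 19.3, 17.7 and 21.6 CPM with RAS present and at 23.9, 25.9 and 19.3 CPM with RAS deleted. Nras stood at 17.3, 11.4 and 18 CPM against 27.9, 19.2 and 23.7 CPM, without overlap, a log2 difference of 0.6 (SE 0.57, edgeR adjusted p 0.470). That SE rests on a spread shared by all 23 libraries. In 2iL under the same ERF label, Nras ran from 5.32 to 52.3 CPM. Hras and Nras, labelled as disrupted in both groups, were still counted in all 6 libraries, and their counts do not check the deletion that separates the groups. Epiblast markers were present in every library, as Pou3f1 stood between 30.4 and 63.8 CPM over the 6.

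A gene was called where edgeR's quasi-likelihood test gave a Benjamini-Hochberg adjusted p under 0.05 over the 20372 genes tested and the change was at least 2-fold. RAS deletion under the ERF knockout label gave 1401 such genes, 6.88% of those tested, of which 573 (2.81%) were higher and 828 (4.06%) were lower. The typical call was modest, with a median absolute log2 change of 1.45, and 266 calls passed 4-fold, 124 higher and 142 lower. The CPM ranges of the 3 and 3 libraries did not overlap for 1368 of the calls, beside 46.9% of all genes tested. In 83 calls a group lay at or under 3 counts in every library, and the fitted fold change then depends on the prior count of the model. Another 324 calls were predicted genes, pseudogenes or rows without a known symbol.

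Promoters of 3 genes that carried large changes are printed to let an ETS motif be seen in its place: Dusp6 as an ERK feedback gene that fell, Cubn as an endoderm gene that fell, and Rasgrp3 as a gene that rose. Each runs 5′ to 3′ on the gene's strand from 250 bases before to 50 bases after the start, from RefSeq on GRCm38.p6. Capitals mark CCGGAA, a longer form of the ETS core GGAA, on either strand.
Dusp6, chr10:99262981-99263280, plus strand: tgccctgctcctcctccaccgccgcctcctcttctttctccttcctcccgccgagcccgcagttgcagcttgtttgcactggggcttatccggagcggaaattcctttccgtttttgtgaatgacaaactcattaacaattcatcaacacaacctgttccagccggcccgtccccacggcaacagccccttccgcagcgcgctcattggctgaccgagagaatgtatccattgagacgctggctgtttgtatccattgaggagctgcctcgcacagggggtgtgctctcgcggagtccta
Cubn, chr2:13491827-13492126, minus strand: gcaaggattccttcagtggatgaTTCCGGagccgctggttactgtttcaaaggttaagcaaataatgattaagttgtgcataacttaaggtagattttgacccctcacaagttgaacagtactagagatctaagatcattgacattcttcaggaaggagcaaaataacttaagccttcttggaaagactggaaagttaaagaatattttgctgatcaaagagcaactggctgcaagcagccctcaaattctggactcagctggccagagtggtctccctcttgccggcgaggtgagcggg
Rasgrp3, chr17:75435655-75435954, plus strand: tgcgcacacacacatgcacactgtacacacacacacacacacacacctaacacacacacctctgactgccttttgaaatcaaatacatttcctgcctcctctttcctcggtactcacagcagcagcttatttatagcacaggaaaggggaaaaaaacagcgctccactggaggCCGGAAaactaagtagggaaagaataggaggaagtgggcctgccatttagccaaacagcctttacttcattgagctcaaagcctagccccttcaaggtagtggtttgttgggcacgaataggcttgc
The Dusp6 window held no CCGGAA, though the core GGAA alone, which was not marked, occurs in it. Cubn held CCGGAA on the opposite strand at position -227 from the start, and Rasgrp3 held it on its own strand at position -77, while a further Rasgrp3 promoter in the table held none. CCGGAA was found in 23.7% of promoters of all genes tested, in 10.5% of those of genes called higher and in 13.3% of those of genes called lower. The still longer form CCGGAAGT, which contains CCGGAA, was in 6.79%, 1.40% and 2.80%. The AP-1 site TGAGTCA was in 3.90%, 4.88% and 4.57%, and the E-box CACGTG, the form bound by Myc, in 9.37%, 4.65% and 11.5%. Promoters were matched for 12852 of the genes tested, 329 of those called higher and 559 of those called lower. These shares describe letters in a fixed window and were not tested.

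Of the ETS activators Etv4, Etv1 and Etv5, whose RNA is induced by FGF signalling, 2 of 3 fell. Etv4 stood at 24.2, 21.7 and 26 CPM with RAS present and at 0.515, 0.408 and 0.787 CPM with RAS deleted. All 3 RAS-deleted libraries lay far below the lowest RAS-present one, and the log2 change was -5.39 (SE 0.26, edgeR adjusted p 3.06e-11). Etv1 stood at 46.2, 49.9 and 47.1 CPM against 17, 20.3 and 19.6 CPM, without overlap, and fell by 1.34 on the log2 scale (SE 0.29, edgeR adjusted p 0.00315). Etv5 was lower by less than 2-fold, with a log2 difference of -0.34 (SE 0.11, edgeR adjusted p 0.0211), and its 6 libraries lay between 168 and 239 CPM. Among 17 other ETS factors tested, Fli1 alone was called, or 5.88% of them, near the 6.88% of all genes tested. It rose from 0.163, 0.0434 and 0.279 CPM to 1.58, 2 and 1.24 CPM, a log2 change of 3.25 that was 3.87 without RAS-present replicate 3.

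Of 19 ERK feedback inhibitors tested, 5 fell and none rose, with a median log2 change of -0.57 where the median over all genes was 0. The MAP kinase phosphatase Dusp4 stood at 57.5, 62.7 and 54.5 CPM with RAS present and at 5.25, 5.92 and 5.26 CPM with RAS deleted. The groups did not overlap, with a change in log2 of -3.41 (SE 0.36, edgeR adjusted p 5.39e-06). Dusp6, which removes phosphate from ERK itself, went from 118, 99.9 and 111 CPM to 22.5, 22.7 and 25.3 CPM. The 3 RAS-deleted values lay close to each other, and the change was -2.22 (SE 0.2, edgeR adjusted p 4.38e-07). Spred3, an inhibitor of RAF activation, went from 11.5, 8.73 and 16 CPM to 2.32, 2.16 and 2.28 CPM, a change in log2 of -2.42 (SE 0.2, edgeR adjusted p 1.58e-08). Spry4, an inhibitor of receptor signalling to ERK, went from 14.8, 9.99 and 15.4 CPM to 0.644, 0.694 and 0.539 CPM. Dusp9 went from 123, 128 and 145 CPM to 59.1, 64 and 71.3 CPM, a change in log2 of -1.03 that was under 2-fold without RAS-deleted replicate 1 (-0.98) or RAS-present replicate 3 (-0.96).

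Other members of the feedback list were not called. Spry2 stood at 41.4, 34.7 and 42 CPM with RAS present and at 25.1, 24 and 26.1 CPM with RAS deleted, and Spred1 at 82.8, 75.4 and 91.9 CPM against 44, 47.7 and 46 CPM. Neither pair of groups overlapped, yet both differences were under 2-fold, with log2 values of -0.65 and -0.86. Spry1 was likewise lower by -0.54. Il17rd, a membrane inhibitor of FGF signalling, stood at 142, 120 and 138 CPM against 149, 162 and 146 CPM, a log2 difference of 0.19 (edgeR adjusted p 0.126).

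**Figure D1:**
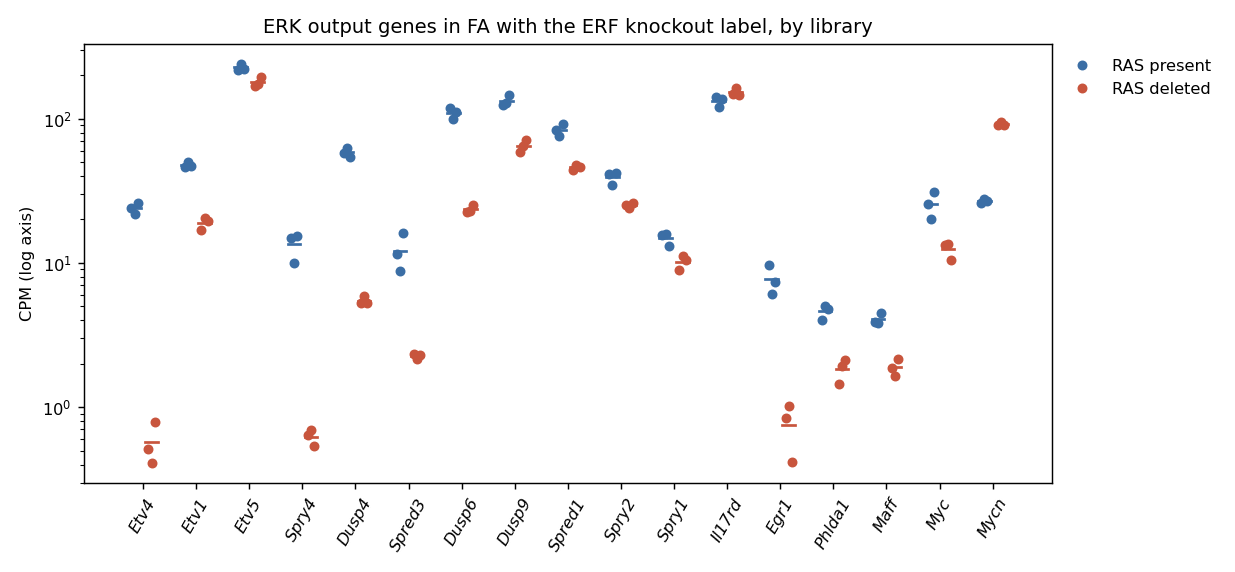
CPM on a log axis for 17 ERK output genes in the 3 RAS-present (blue) and 3 RAS-deleted (red) FA libraries with the ERF knockout label; points are libraries and short lines group means. Etv4, Spry4, Dusp4 and Egr1 show the widest gaps, Spry2, Spred1 and Etv5 narrow ones, Il17rd stays near 120 to 162 CPM, and Mycn lies higher with RAS deleted.

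The immediate early and ERK output genes divided. Of 31 tested, 5 fell and 3 rose, with a median log2 change of -0.38. The zinc finger factor Egr1 fell from 9.7, 6.08 and 7.33 CPM to 0.837, 1.02 and 0.414 CPM, a change in log2 of -3.33 (SE 0.43, edgeR adjusted p 1.08e-05). Phlda1 fell by 1.34 and the small Maf factor Maff by 1.1 on the log2 scale. The count of falls dropped from 5 to 3 without RAS-deleted replicate 2, RAS-deleted replicate 3 or RAS-present replicate 3. Myc was called lower, at 25.7, 20.2 and 30.8 CPM against 13.4, 13.5 and 10.4 CPM, with a change in log2 of -1.04 (SE 0.33, edgeR adjusted p 0.0286). That call held without RAS-present replicate 2 and was lost without any other library, at log2 changes between -1.11 and -0.88. Fos, at 2.4, 1.87 and 2.07 CPM against 1.26, 1.27 and 1.2 CPM, was under 2-fold.

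Mycn moved opposite to Myc. It stood at 26.1, 27.7 and 26.7 CPM with RAS present and at 90.6, 93.9 and 90.4 CPM with RAS deleted. The groups were tight and separate, with a change in log2 of 1.77 (SE 0.11, edgeR adjusted p 2.27e-10). The cyclin gene Ccnd1 rose from 31.2, 18.2 and 32.2 CPM to 69.2, 70.5 and 42.9 CPM, by 1.16 on the log2 scale, and by 0.93 without RAS-present replicate 2, which is under 2-fold. Of 31 cell cycle drivers tested, these 3 Myc family and cyclin genes were the calls, or 9.68% beside 6.88% of all genes. Among the signalling components, none of 25 RAF, MEK, ERK and adaptor genes was called, nor was any of 19 RAS family GTPases. The CPM ranges of the groups did not overlap for 13 of the 25 and for 13 of the 19, beside 46.9% of all genes tested. The adaptor Gab1 stood at 183, 174 and 183 CPM against 206, 192 and 202 CPM, without overlap. The log2 values ran from -0.91 to 0.42 in the cascade and from -0.7 to 0.84 in the GTPases.

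The FGF ligands and receptors changed on both sides. Of 18 tested, 5 rose and 3 fell. Their median log2 change was 0.05, and between 0.04 and 0.23 on leaving out each library. The ligand gene Fgf8 stood at 3.75, 1.69 and 3.35 CPM with RAS present and at 37.6, 37.5 and 27.3 CPM with RAS deleted. Every RAS-deleted library lay above every RAS-present one, and the log2 change was 3.53 (SE 0.39, edgeR adjusted p 5.48e-06). Fgf15 rose from 7.74, 6.65 and 6.38 CPM to 33.9, 37.5 and 28.8 CPM, and Fgf17, counted with the mesoderm and endoderm genes as well, from 1.26, 0.825 and 1.47 CPM to 5.18, 4.78 and 3.77 CPM. Fgf5, the usual marker of epiblast-like cells, was called at 21.2, 12.5 and 16.8 CPM against 42.6, 45.2 and 35.5 CPM, with a change in log2 of 1.29 and an edgeR adjusted p of 0.0499. Leaving out any of the 6 libraries ended that call, at log2 changes between 1.1 and 1.49. Fgf4, the main autocrine ligand of naive cells, stood at 90.5, 103 and 105 CPM against 105, 103 and 114 CPM, and the groups overlapped.

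Among the receptors, Fgfr2 rose from 7.99, 8.86 and 9.52 CPM to 50.1, 57.4 and 51.9 CPM, a change in log2 of 2.59 (SE 0.26, edgeR adjusted p 1.52e-06). Fgfr1 was 0.53 higher on the log2 scale, under 2-fold. Fgfr4 fell by 1.61. Klb, the co-receptor for endocrine FGFs, fell from 4.28, 6.3 and 5.5 CPM to 0.837, 0.857 and 1.12 CPM, by 2.51 (SE 0.27, edgeR adjusted p 7.39e-07). Other tyrosine kinase receptors and ephrins gave 4 rises and 3 falls in 32 tested. The ephrin receptor Epha1 fell from 11.8, 10.2 and 16.3 CPM to 1.06, 0.898 and 1.08 CPM, and Epha7 from 33.5, 35 and 35.8 CPM to 10.6, 11.2 and 13.3 CPM. The GDNF receptor Ret fell by 1.24. The rises were the ephrin ligand Efnb1, by 1.66, Kitl, the ligand of the receptor Kit, by 1.52, the platelet-derived growth factor Pdgfc, by 1.85, and the receptor gene Egfr. Egfr went from 13.5, 13.3 and 12.6 CPM to 32, 29.1 and 33 CPM.

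The RAS activator Rasgrp3, a guanine nucleotide exchange factor, ranked behind Miat alone among the rises of well-measured genes, those whose groups did not overlap and whose higher group had a mean of at least 5 CPM. It stood at 1.1, 0.782 and 0.917 CPM with RAS present and at 12.9, 12.9 and 12.4 CPM with RAS deleted. No RAS-deleted library came near the RAS-present range, and the log2 change was 3.76 (SE 0.29, edgeR adjusted p 7.92e-09). The long noncoding RNA Miat went from 1.55, 2.08 and 3.47 CPM to 41.7, 49.2 and 27.3 CPM. Further rises by the same rule were the phosphodiesterase Pde1b, from 5.83, 7.38 and 6.34 CPM to 55.9, 60.04 and 55.1 CPM and Ror1, a receptor for Wnt5a, with a change in log2 of 3.02. Gli1, a target and effector of Hedgehog signalling, rose by 2.90. Among falls by the same rule, Fbp2, a fructose bisphosphatase, followed Etv4, from 5.58, 8.25 and 4.94 CPM to 0.322, 0.286 and 0.124 CPM. The proton pump subunit Atp12a went from 6.69, 6.3 and 4.98 CPM to 0.515, 0.408 and 0.414 CPM, and Amot, a scaffold of the Hippo pathway, from 89.6, 83.7 and 74.5 CPM to 9.4, 8.2 and 5.88 CPM.

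Markers of the formative and primed epiblast rose more often than they fell. Of 35 tested, 9 rose and Etv4 alone fell, with a median log2 change of 0.38. Leaving out each library gave between 6 and 9 rises, and 2 falls without RAS-present replicate 1 or RAS-deleted replicate 3. Besides Fgf8 the largest were Sall3, a zinc finger factor, from 3.51, 3.74 and 3.27 CPM to 29.6, 26.9 and 17.8 CPM, and the adhesion molecule Ncam1, from 14, 12.2 and 14 CPM to 53.9, 55.9 and 58.2 CPM. The log2 change of Ncam1 was 2.06 (SE 0.12, edgeR adjusted p 5.1e-11). Sall2 stood at 44.8, 41.5 and 45.9 CPM against 95.7, 101 and 89.4 CPM, and Pim2, a serine kinase, at 21.2, 10.5 and 21.3 CPM against 54.7, 51.3 and 36.9 CPM. N-cadherin, Cdh2, was called at a change in log2 of 1.29, which without RAS-present replicate 2 became 1.26 at an adjusted p of 0.0514. The defining epiblast factors Otx2 and Pou3f1 were not called: Otx2 stood at 20.9, 19.6 and 17.9 CPM against 29.5, 31.7 and 37.6 CPM, and Pou3f1 at 51.8, 30.4 and 37.9 CPM against 57.3, 63.8 and 56.1 CPM. Of 14 general pluripotency genes 2 rose: Sall1 by 1.7, from 55.4, 40.7 and 56.3 CPM to 163, 158 and 173 CPM, and Foxd3, which both lists hold, by 1.61. Another member fell, and 2 did without RAS-present replicate 2.

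Of 28 naive pluripotency genes tested, 4 rose and 3 fell, with a median log2 change of 0.12 that ran from 0.08 to 0.18 on leaving out each library, and the rises were 2 without RAS-present replicate 3. Tbx3, a naive factor, stood at 23.9, 37.2 and 21.4 CPM with RAS present and at 7.27, 5.84 and 5.3 CPM with RAS deleted. Dppa3 went from 4.52, 5.73 and 3.39 CPM to 1.29, 2.2 and 1.28 CPM. Tcl1 went from 3.18, 4.78 and 2.71 CPM to 1.9, 1.39 and 1.95 CPM, a change in log2 of -1.01 that was under 2-fold without RAS-present replicate 2 (-0.76) or RAS-deleted replicate 2 (-0.89). None of these pairs of groups overlapped. Tbx3 stood at 401 ± 31.5 CPM (SD, n = 3) in RAS-present cells of the same ERF label in 2iL. Jam2, a junction molecule, rose from 2.53, 4 and 2.31 CPM to 9.11, 6.9 and 6.51 CPM, and Spp1, osteopontin, by 1.32. Prdm14, a repressor that keeps the naive state, was called at 0.448, 0.521 and 0.279 CPM against 1.19, 0.612 and 1.53 CPM. That call was lost without replicate 3 of either group, at log2 changes of 1.19 and 1.15. Klf4 and Esrrb overlapped between the groups. Nanog was higher without overlap, at 95.9, 129 and 94.8 CPM against 170, 175 and 171 CPM. So was Zfp42, at 23.1, 26 and 18.2 CPM against 39.8, 28 and 32.7 CPM. Tfcp2l1 was lower without overlap, at 34, 44.3 and 29.8 CPM against 23.8, 22.6 and 27 CPM.

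Early neural genes gave 3 rises and no fall in 22 tested, with a median log2 change of 0.44, and the count stayed at 3 without any 1 library. Pax6, a neural and eye field factor, stood at 4.57, 4.95 and 5.06 CPM with RAS present and at 30.4, 29.997 and 28.8 CPM with RAS deleted. The SD within the groups was 0.26 and 0.828 CPM (n = 3 each), and the log2 change was 2.61 (SE 0.25, edgeR adjusted p 3.1e-07). The neuronal tubulin Tubb3 rose from 6.2, 4.3 and 7.01 CPM to 24.5, 22.7 and 23 CPM, and the homeobox gene Irx3 by 1.68. Sox1, a marker of neural progenitors, stood at 34.7, 34.6 and 43.3 CPM against 67.4, 71.2 and 68.4 CPM, a log2 difference of 0.88, under 2-fold.

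Of 21 primitive and visceral endoderm markers tested, 10 fell, 1 rose and the other 10 were not called, with a median log2 change of -0.96, and between 9 and 12 fell on leaving out each library. The endocytic receptor Cubn stood at 95, 76.6 and 133 CPM with RAS present and at 3.77, 4 and 5.43 CPM with RAS deleted, a change in log2 of -4.54 (SE 0.37, edgeR adjusted p 3.8e-07). Among the transcription factors that define the lineage, Gata6 went from 17.9, 20.4 and 13.5 CPM to 1.9, 2.33 and 2.94 CPM. Gata4 went from 16.8, 17.2 and 17 CPM to 4.57, 3.67 and 6.59 CPM, and Sox7 from 8.48, 7.69 and 7.17 CPM to 0.547, 0.98 and 0.787 CPM. For each of these genes the RAS-deleted libraries all lay below the RAS-present ones. Sox17 fell by 1.86, Hnf4a by 1.71 and the adaptor Dab2 by 1.97. Pdgfra, the receptor used to mark primitive endoderm, stood at 10.6, 11.6 and 9.8 CPM against 2.99, 6.77 and 7.96 CPM and was not called (edgeR adjusted p 0.0875), though it was called without RAS-deleted replicate 3, at a log2 change of -1.15.

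The exception was Lrp2, megalin, the partner of Cubn in endocytosis, which rose from 359, 309 and 373 CPM to 897, 931 and 826 CPM, a change in log2 of 1.35 (SE 0.19, edgeR adjusted p 6.02e-05). The summed CPM of the list ran from 1748 to 2275 with RAS present and from 1529 to 1944 with RAS deleted, and the groups overlapped. Without Lrp2, a sum chosen after the values were seen, it ran from 1389 to 1902 with RAS present and from 632 to 1118 with RAS deleted, without overlap. In such bulk libraries fewer cells of a type and less RNA per cell cannot be told apart. Of 18 trophoblast markers 4 fell and 1 rose, while 2 fell without RAS-deleted replicate 1 or RAS-present replicate 2, and 2 rose without RAS-present replicate 1, RAS-deleted replicate 2 or RAS-deleted replicate 3. Their summed CPM ran from 79.7 to 101 with RAS present and from 65.5 to 73.6 with RAS deleted. Keratin 7, Krt7, fell from 2.61, 3.34 and 2.43 CPM to 0.901, 0.98 and 0.995 CPM, while the factor Gata3 rose from 0.448, 0.652 and 0.797 CPM to 3.7, 2.82 and 3.52 CPM. Fibroblast markers, which would mark feeder cells, summed to between 35.5 and 50.9 CPM with RAS present and between 37.8 and 57.5 CPM with RAS deleted, and the defining marker Postn was at 0 in all 6 libraries. Of 12 fibroblast markers tested, 2 rose and none fell, and 1 rose without RAS-present replicate 1, RAS-deleted replicate 1, RAS-deleted replicate 2 or RAS-present replicate 3. The collagen gene Col1a2 went from 0.571, 0.565 and 0.638 CPM to 2.06, 1.67 and 1.08 CPM, and lost its call without RAS-deleted replicate 1 (log2 change 1.20). The proteoglycan gene Dcn went from 0.163, 0.434 and 0.159 CPM to 0.676, 1.06 and 1.16 CPM, and lost its call without RAS-present replicate 1 (1.69), RAS-deleted replicate 2 (1.83) or RAS-present replicate 3 (1.67). Its log2 change of 1.92 was 2.52 without RAS-present replicate 2. The part of these other cell types in the results was not tested.

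**Figure D2:**
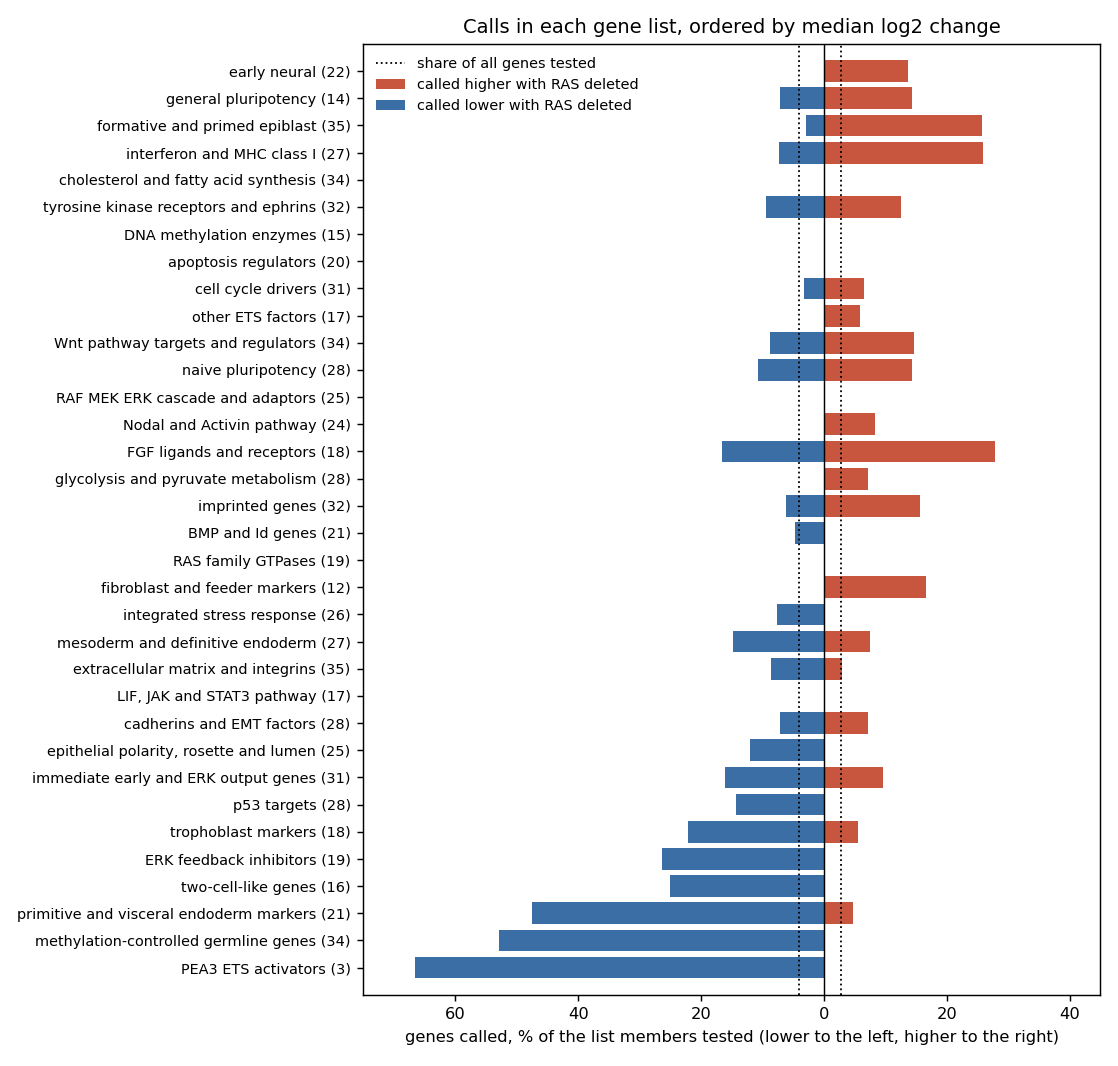
Share of the tested members of each of 34 gene lists called higher (red, to the right) or lower (blue, to the left) with RAS deleted, in percent, with the number tested in brackets; lists are ordered by median log2 change and dotted lines give the shares over all genes tested, 2.81% and 4.06%. Calls were mostly falls in the germline, endoderm and ETS activator lists and mostly rises in the formative and interferon lists, while the FGF list had 5 rises and 3 falls.

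Mesoderm and definitive endoderm genes gave 4 falls and 2 rises in 27 tested, or 22.2% beside 6.88% over all genes, and 1 rise without RAS-deleted replicate 2. Gata6, given above with the endoderm markers, was among the falls. Lhx1, a LIM homeobox factor of the organizer and visceral endoderm, fell from 2.98, 2.82 and 3.63 CPM to 0.161, 0.286 and 0.166 CPM. Mesp2 fell from 2.61, 2.61 and 1.75 CPM to 0.483, 0.367 and 0.746 CPM. The mesoderm marker Eomes was higher without overlap, at 8.11, 6.65 and 8.57 CPM against 15.4, 13.9 and 12.6 CPM. The markers T and Mixl1 overlapped between the groups. Of 24 Nodal and Activin pathway genes 2 rose, or 8.33%, near the 6.88% called over all genes, and 1 rose without RAS-present replicate 2. The Nodal inhibitor Lefty1 stood at 438, 367 and 344 CPM with RAS present and at a mean of 909 CPM with RAS deleted, without overlap, with a change in log2 of 1.25. Lefty2, at 155, 118 and 99.8 CPM against 253, 238 and 218 CPM, was under 2-fold at 0.93, though it was called without RAS-present replicate 1, at 1.12. These 2 genes are close copies, among which the estimated counts could be divided, so their individual values are uncertain. Fst, follistatin, an Activin antagonist, was called at 1.24 and was under 2-fold (0.86) without RAS-present replicate 2, where 1 other member of the list was called lower.

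Wnt pathway targets and regulators gave 5 rises and 3 falls in 34 tested. The secreted inhibitor Dkk1 fell from 2.69, 3.21 and 1.59 CPM to 0.193, 0.204 and 0.166 CPM, by 3.69 on the log2 scale (SE 0.47, edgeR adjusted p 6.24e-06). The ligand Wnt7b fell by 1.91, and by 2.66 without RAS-deleted replicate 3. The Wnt-inactivating enzyme Notum rose from 1.43, 1.82 and 1.2 CPM to 7.44, 4.69 and 4.77 CPM. The transcriptional repressor Tcf7l1 rose from 43.2, 43.2 and 47.7 CPM to 107, 105 and 120 CPM, and the secreted antagonist Sfrp1 by 1.62. Sp8, a zinc finger factor, rose by 1.74.

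Of 25 polarity, rosette and lumen genes 3 fell and none rose, with a median log2 change of -0.31, and 2 fell without RAS-deleted replicate 1, 5 without RAS-present replicate 2 and 6 without RAS-deleted replicate 3. The tight junction gene Cldn7 stood at 8.68, 7.34 and 9.8 CPM with RAS present and at 1.74, 1.35 and 2.07 CPM with RAS deleted, a change in log2 of -2.32. Crb3, an apical polarity gene, fell from 3.06, 3.34 and 4.82 CPM to 1.26, 0.735 and 0.995 CPM. Of 28 cadherins and factors of the epithelial to mesenchymal transition 2 rose and 2 fell. Leaving out RAS-deleted replicate 1, RAS-present replicate 2 or RAS-deleted replicate 2 gave 1 fall, and RAS-present replicate 2 also 1 rise. Esrp1, a splicing factor of epithelial cells, fell by 1.17 and Zeb2, a repressor of epithelial genes, rose by 1.78, from 6.24, 4.39 and 5.46 CPM to 17.4, 20.6 and 17.5 CPM.

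Germline genes whose promoters are silenced by DNA methylation fell widely: 18 of 34 tested fell and none rose, with a median log2 change of -1.05, and between 16 and 18 fell on leaving out each library. The synaptonemal complex gene Sycp2 went from 11.7, 10.03 and 9.64 CPM to 2.38, 1.63 and 3.23 CPM, a change in log2 of -2.11 (SE 0.28, edgeR adjusted p 1.09e-05). Taf7l, a germ cell form of a TFIID subunit, fell by 1.93, and the piRNA helicase Mov10l1 from 36.2, 37.2 and 32.8 CPM to 10.5, 10.1 and 14.6 CPM. The RNA helicase Ddx4 stood at 27, 29.8 and 26.4 CPM with RAS present and at 10.3, 10.9 and 12.3 CPM with RAS deleted. Sycp3 fell by 1.39, Piwil2 by 1.27 and Mael by 1.13, each without overlap between the groups. Dazl, at 19.2, 20.1 and 11.3 CPM against 11.6, 9.59 and 11.7 CPM, was under 2-fold and overlapped. None of 15 DNA methylation enzymes was called, beside 6.88% of all genes tested. Their CPM ranges did not overlap between the groups for 11 of the 15, beside 46.9% of all genes tested. The cofactor Trim28 was higher by 0.62 on the log2 scale (SE 0.11, edgeR adjusted p 0.000191), under 2-fold.

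Interferon and MHC class I genes gave 7 rises and 2 falls in 27 tested, with a median log2 change of 0.38. Oasl2 stood at 15.6, 6.95 and 6.18 CPM with RAS present and at 26.9, 27.4 and 23.7 CPM with RAS deleted, and the nucleic acid sensor Zbp1, outside the list, at 3.59, 0.956 and 1.16 CPM against 13.7, 11.1 and 9.99 CPM. The log2 change of Zbp1 was 2.60, and 3.45 without RAS-present replicate 1. In Oasl2, Zbp1, Irf1 and Psmb8, RAS-present replicate 1 was the highest of its group. Irf1, an interferon-responsive factor, stood at 62, 40.005 and 32 CPM against 107, 97.3 and 98.1 CPM, and its log2 change of 1.18 was 0.98 without RAS-present replicate 3. The immunoproteasome subunit Psmb8, at 5.87, 2.48 and 2.71 CPM against 10.3, 8.53 and 7.5 CPM, lost its call without RAS-deleted replicate 1, RAS-present replicate 2 or RAS-present replicate 3 (log2 changes between 1.02 and 1.11). The list had 3 rises without RAS-deleted replicate 1 or RAS-present replicate 3, 4 without RAS-present replicate 2, and 1 fall without RAS-deleted replicate 2. Ifitm1 rose from 1.88, 2.35 and 2.11 CPM to 10.04, 10.5 and 11.6 CPM, and lies in a family of similar genes. Bst2, tetherin, went the other way, from 70.6, 76.4 and 80.2 CPM to 31.3, 33.3 and 39.95 CPM.

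**Figure D3:**
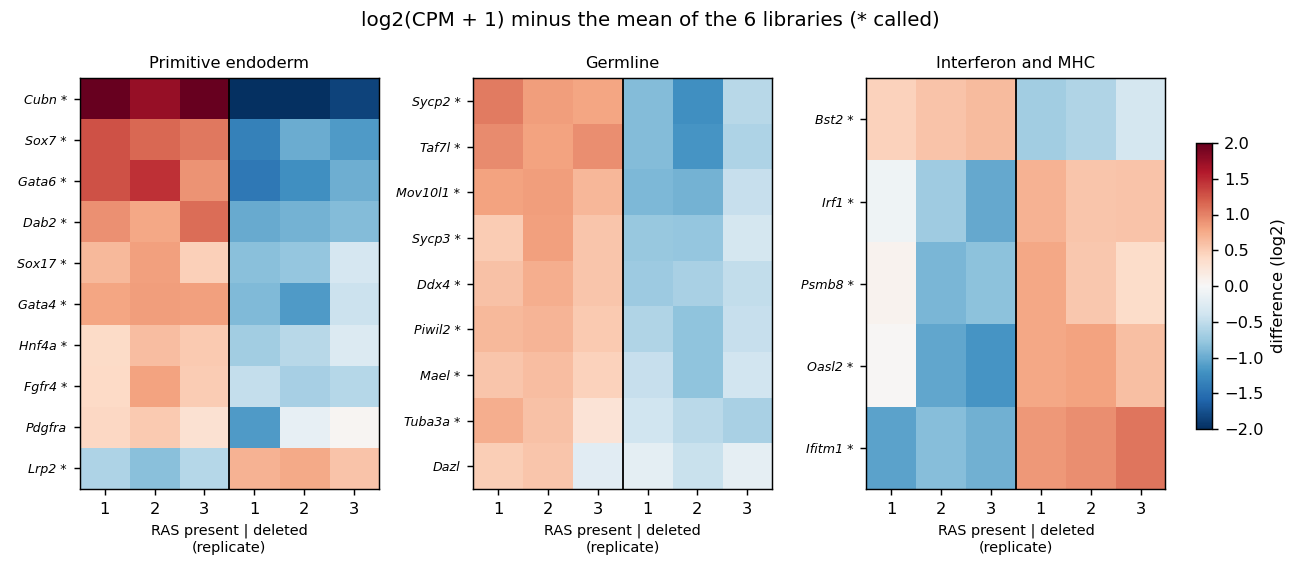
log2(CPM + 1) minus the gene's mean over the 6 libraries, as colour from -2 (blue) to 2 (red), for the members of 3 lists that the text names, with RAS-present replicates 1 to 3 left and RAS-deleted replicates right of the black line; stars mark calls. Endoderm and germline rows turn from red to blue at the line, except Lrp2 and Dazl, and interferon rows from blue to red, except Bst2, with RAS-present replicate 1 the reddest of its group in Irf1, Oasl2 and Psmb8.

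The same deletion with ERF wild type in FA served as the nearest comparison, with 3 RAS-deleted and 2 RAS-present libraries and no library shared. It gave 3518 calls, 17.3% of the genes tested. Of the 1401 calls here, 636 (45.4%, or 18.1% of the 3518) were called there too and 765 were not. Signs matched in 513 of the 636, 192 higher and 321 lower, and differed in 123, of which 64 were higher here and 59 lower here. The difference of the 2 effects, tested as an interaction, was called for 13.7% of all genes, 6.29% positive and 7.42% negative, and for 540 (38.5%) of the 1401. Among those 540, the change here was of the same sign and larger in 68, of the same sign and smaller in 114 and of the opposite sign in 358.

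Within the ERK feedback list 5 genes had a called positive interaction and none a negative one. Il17rd and Spry2 headed it: Il17rd changed by -3.3 with ERF wild type and by 0.19 here, an interaction of 3.5 (SE 0.14, edgeR adjusted p 1.34e-13), and Spry2 by -4.01 and -0.65, an interaction of 3.36 (SE 0.22, edgeR adjusted p 7.24e-10). In CPM, Spry2 kept 25.1 ± 1.04 (SD, n = 3) after RAS deletion under the ERF knockout label and 3.84 ± 1.15 (SD, n = 3) after RAS deletion with ERF wild type. Spred1 had an interaction of 2.08 and Spry4 of 2.11. Dusp4, at -3.63 and -3.41, had none that was called: the interaction was 0.21 (SE 0.51, edgeR adjusted p 0.804), and that of Dusp6 was 0.67 (SE 0.29, edgeR adjusted p 0.0979). Mycn rose by 1.82 and 1.77. Etv4 stood on the other side, since its interaction was -2.3 (SE 0.37, edgeR adjusted p 8.01e-05). Myc had an interaction of 2.89, from -3.93 with ERF wild type to -1.04 here. Over the 31 immediate early and ERK output genes tested, 1 interaction was called positive and 4 negative.

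Of the lineage lists, 14 of 35 formative genes had a called positive interaction and 17 of 28 naive genes a negative one. Pax6 changed by 0.07 with ERF wild type and 2.61 here (interaction SE 0.37, edgeR adjusted p 2.06e-05), and Fgf8 by -0.57 and 3.53. With ERF wild type the RAS-deleted libraries spread widely, at 5.17, 9.16 and 13 CPM for Pax6 and 2.94, 6.2 and 14.2 CPM for Fgf8. Both ranges overlapped those of the RAS-present libraries. Sall2 and Pim2 reversed, from -0.79 to 1.11 and from -1.59 to 1.43. Tbx3 changed by 2.39 with ERF wild type and by -2.15 here, an interaction of -4.55 (SE 0.41, edgeR adjusted p 4.58e-07). Jam2, at 6.01 and 1.37, and Tbx3 had the most negative interactions among the well-measured calls here, those whose groups did not overlap and whose higher group had a mean of at least 5 CPM, followed by Fbp2, Atp12a and the ubiquitin ligase adaptor Dcaf12l1. Among the most positive by the same rule were those of the sialyltransferase St6gal2 (6.36), Ccdc194 (5.96), Psmb8 (5.61) and the guanylate-binding Gbp7 (4.66). The Ccdc194 value depends on the prior count of the fit, since each ERF wild type RAS-deleted library held 3 counts or fewer. Gbp7, from a family of similar genes, lost its call here without RAS-deleted replicate 1 (1.09), RAS-present replicate 2 (1.03) or RAS-present replicate 3 (0.92), and its log2 change of 1.24 was 1.99 without RAS-present replicate 1. Cubn fell by 9.01 with ERF wild type and by 4.54 here, an interaction of 4.47 (SE 0.68, edgeR adjusted p 0.000124), whereas the interactions of Gata6 (1.16), Gata4 (0.48) and Sox17 (0.17) were not called.

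**Figure D4:**
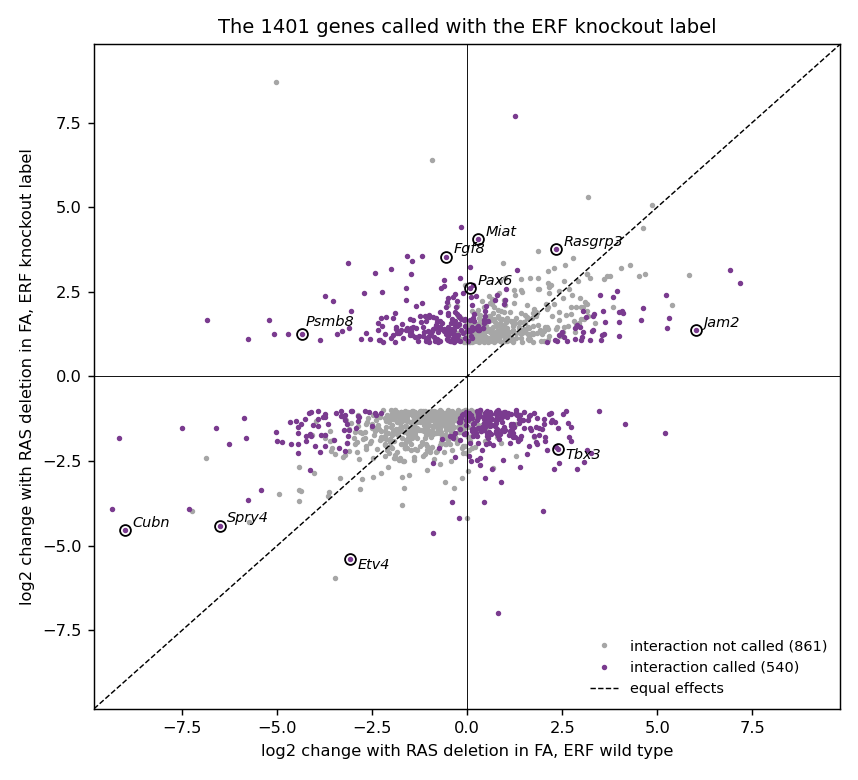
log2 change with RAS deletion in FA under the ERF knockout label (vertical) against that with ERF wild type (horizontal) for the 1401 genes called under the label; purple points are the 540 with a called interaction, grey points the other 861, where the dashed line marks equal effects. The empty band between -1 and 1 is set by the call rule, and Spry4 and Cubn lie above the line, Etv4, Tbx3 and Jam2 below it.

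In 2iL the same deletion under the ERF knockout label gave 43 calls, 0.211% of the genes tested. Of these 7 (16.3%, or 0.500% of the calls here) were called in FA too: Timd2, Cubn, Dab2, Meis2, Klb, Tns4 and Nt5e. Signs matched for 6. Cubn stood at 11.1 ± 5.28 CPM (SD, n = 3) with RAS present in 2iL and at 1.2 ± 0.712 CPM (SD, n = 3) with RAS deleted. Meis2, a homeobox factor, rose by 1.11 in 2iL and by 1.79 in FA. The ectonucleotidase Nt5e rose by 1.83 in 2iL and fell by 2.06 in FA. The interaction with the medium was called for 4.59% of all genes tested and for 570 (40.7%) of the calls here, among them Etv4 at -5.15, Spry4 at -4.39, Epha1 at -4.44 and Fgfr2 at 4.25. Dusp6 stood at 10.3 ± 1.03 CPM (SD, n = 3) in 2iL with RAS present and at 10.1 ± 0.724 CPM (SD, n = 3) with RAS deleted, below the 23.5 ± 1.54 CPM (SD, n = 3) of the RAS-deleted cells in FA.

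**Figure D5:**
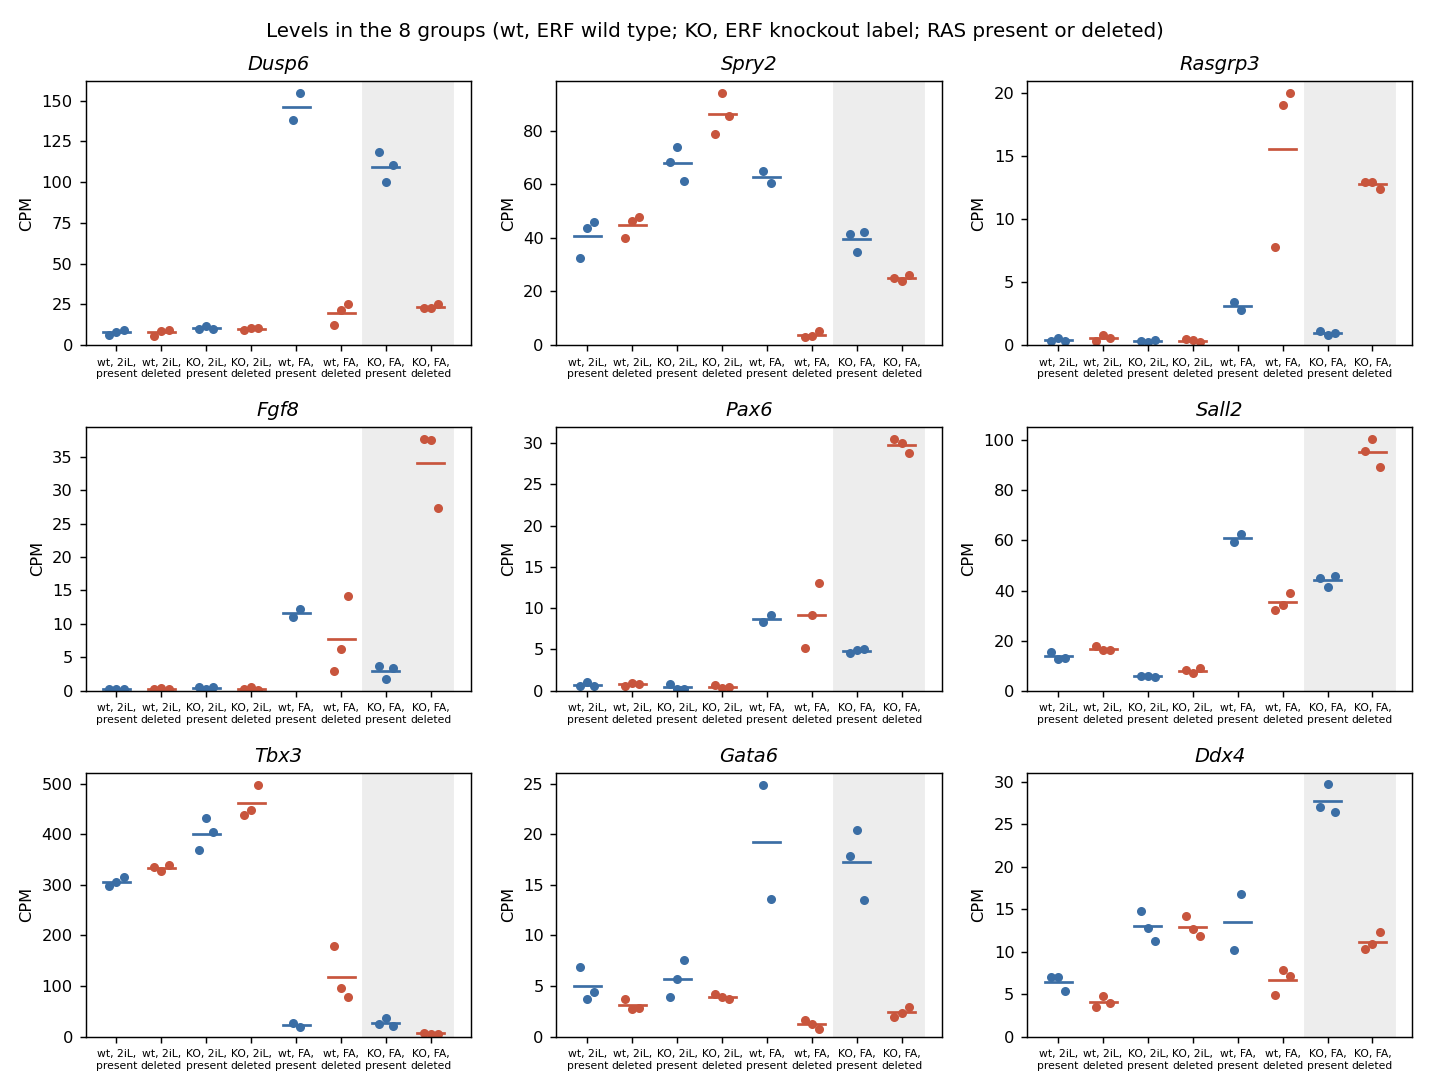
CPM of 9 genes in all 23 libraries by group (wt, ERF wild type; KO, ERF knockout label), with points for libraries, lines for means and the 2 groups compared here shaded. Dusp6 falls with RAS deletion in FA for both ERF labels, Spry2 keeps an intermediate level under the knockout label, Fgf8 and Pax6 are highest in the shaded RAS-deleted group, and Tbx3 stays low in both shaded groups.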

How the data were processed

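RNA was depleted of ribosomal RNA, made into stranded libraries and sequenced as 75-base read pairs, per the labels' protocols. The submitters' processing notes name bcl2fastq 2.20.0, fastp 0.20.0, Salmon and the build mm10; the annotation is not given in the sources used here. The authors deposited a matrix of counts per gene and, per library, tables of TPM and, per the file headers, the length and effective length of each gene in bases. The library tables also hold estimated counts, in the column layout that Salmon writes, per the file headers; the tools' order and settings are not given in the sources used here. The whole-number counts of the deposited matrix lie within 0.5 of these estimated counts. TPM was not tested, and effective lengths served 1 alternative.

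From the counts, edgeR 4.0.16 (R 4.3.3, limma 3.58.1) with TMM scaling, its default low-count filter and robust quasi-likelihood fits was run on all 23 libraries with a coefficient per group, so that the groups share an estimate of the spread. It tested 20372 of 53607 genes and was tested on simulated data before use. p-values were adjusted by Benjamini-Hochberg over all genes tested. SE values come from the log2 change and the F statistic (absolute change over the root of F). The interactions are differences of effects in the same model. Alternatives were other size factors, DESeq2 1.42.0, no low-count filter, no 2-fold minimum, only the compared groups with and without a replicate block, the most abundant gene removed, a length offset and each replicate left out. Counting error is small at 22.8 to 29.1 M counts per library except for genes under about 1 CPM.

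Genes are named where they were targets, the 10 largest rises and falls among separate groups with a mean of at least 5 CPM in the higher, the 3 largest called rises and falls of each of 34 lists, the 5 most positive and most negative interactions, or list members given by value. The members and lists were chosen with earlier results of these data known. Another gene targeted by design and a few genes that the rule names are not reported here.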

Additional observations from a re-analysis of the deposited data

Results flagged for a closer look

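The change with RAS deletion in FA was tested for a difference between the ERF labels, and 2794 genes passed. The same test between FA and 2iL under the ERF knockout label passed for 936. The values that follow are the change under the ERF knockout label minus that with ERF wild type, on the log2 scale, for the genes named here that passed; with ERF wild type the RAS-present group had 2 libraries.

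Among ERK output and signalling genes the difference was positive for Spry4 (2.11), Spry2 (3.36), Spred1 (2.08), Il17rd (3.50), Fli1 (3.17), Myc (2.89), Fgf8 (4.10), Fgf5 (3.14), Rasgrp3 (1.43), Epha1 (2.13), Epha7 (1.67) and Efnb1 (1.21), and negative for Etv4 (-2.30), Fos (-1.32), Pdgfc (-1.48) and Ret (-1.72). The feedback list had 5 positive and no negative differences in 19 tested, and the FGF list 4 and 1 in 18. Negative ones were more frequent in 3 other lists. These were immediate early and ERK output genes (1 positive and 4 negative in 31), tyrosine kinase receptors and ephrins (5 and 9 in 32) and other ETS factors (2 and 4 in 17).

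The naive genes named here had negative values: Tbx3 (-4.55), Dppa3 (-3.91), Tcl1 (-3.61), Spp1 (-1.19), Jam2 (-4.65), Klf4 (-3.67), Esrrb (-2.57) and Prdm14 (-3.84). The values were positive for the epiblast genes Sall2 (1.90), Pim2 (3.02) and Pou3f1 (3.26) and for the neural genes Pax6 (2.54) and Sox1 (3.31), while over the 22 early neural genes tested 7 were positive and 4 negative. Over the lists, the naive genes had 1 positive and 17 negative differences in 28 tested and the formative genes 14 and 1 in 35, beside 6.29% positive and 7.42% negative over all genes. Among Wnt, epithelial and mesoderm genes the values were Sp8 (4.02), Notum (-2.12), Wnt7b (-3.25), Crb3 (1.60), Esrp1 (1.71), Zeb2 (2.00) and Lhx1 (3.41), while the Wnt list had 11 positive and 2 negative in 34, the epithelial polarity list 8 and none in 25 and the mesoderm list 8 and none in 27. The value of Lhx1 depends on the prior count of the fit, since every ERF wild type RAS-deleted library held 3 counts or fewer of it.

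For endoderm and trophoblast markers the differences were Cubn (4.47), Dab2 (1.18), Lrp2 (1.29), Pdgfra (1.63) and Gata3 (-1.09), and for fibroblast markers Col1a2 (2.92) and Dcn (4.98). Over these lists there were 7 positive and 1 negative in 21 endoderm markers, 3 and 8 in 18 trophoblast markers and 4 and 2 in 12 fibroblast markers. Those of germline genes were Mael (1.27), Dazl (-3.01) and Tuba3a (-2.18). Interferon and MHC genes gave Irf1 (2.54), Oasl2 (4.55), Zbp1 (4.21), Psmb8 (5.61), Ifitm1 (-1.49), Bst2 (2.61) and Gbp7 (4.66). Over all members tested, germline genes had 2 positive and 12 negative differences in 34, and interferon and MHC genes 10 and 5 in 27.

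The remaining genes with a difference that passed were positive for Slc2a1 (1.44), Mest (1.33), Miat (3.76), Pde1b (1.83), Nt5e (1.69), St6gal2 (6.36), Ccdc194 (5.96) and Scd2 (1.28), and negative for Plk2 (-1.87), Fas (-2.36), Fbp2 (-3.72), Atp12a (-3.33), Dcaf12l1 (-3.17) and Plagl1 (-2.60). By list, p53 targets had no positive and 7 negative differences in 28 tested and imprinted genes 9 and 4 in 32. Glycolysis genes had 7 and 3 in 28, and cholesterol and fatty acid synthesis genes 6 and none in 34.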

How the results depend on the processing

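The 1401 genes called for RAS deletion in FA with the ERF knockout label became 1401 with RLE size factors, 1248 with DESeq2, 1661 without the low-count filter, 1377 with only the compared groups, 1405 without the most abundant gene and 1241 with the length offset. Without the 2-fold minimum there were 5369 calls, while the genes called for the RAS by ERF interaction in FA numbered 5704 (2794 with the minimum) and the genes called for the RAS by medium interaction with the ERF knockout label 2669 (936). Leaving out each replicate gave between 1044 (without RAS-present replicate 2) and 1435 calls, between 2397 and 3128 for the interaction with ERF and between 650 and 1021 for that with the medium. Across these settings between 69.5% and 100% of the 1401 were called again, and between 37.9% and 48.2% of calls were higher. Same-numbered samples of the groups had deviations correlated at 0.356, 0.0261 and 0.195. For replicates 1 and 3 these lay above the crossed pairs, RAS-present 1 with RAS-deleted 3 (-0.288) and RAS-present 3 with RAS-deleted 1 (-0.219). RAS-present replicate 2 correlated slightly better with RAS-deleted replicate 3 (0.0356). Whether the numbers pair the libraries is therefore not settled, and the main fit did not pair them. The fit with the replicate block, run on only the compared groups, gave 1405, 2849 and 1393 calls for the 3 contrasts. It changed the block and the set of libraries at once. Of 137 called genes examined, 98 kept the call in every setting and 39 lost it in at least 1. Maff was under 2-fold with the length offset. Of genes not called, the log2 change of Erf changed sign with the length offset (-0.0891) and ran from -0.0203 to 0.192 on leaving out each replicate, and the log2 change of Pim1 ran from -0.279 to 0.0945. Of 204 list medians recomputed on leaving out each replicate, 56 moved by at least the SD of the list median over the 3 RAS-deleted libraries. The cause was not tested. No alternative scaling moved the median of all genes by more than 0.0100 on the log2 scale.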

Other observations

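Counts for gene groups outside the signalling and lineage lists follow, beside the 6.88% called over all genes tested with the ERF knockout label. Of 28 p53 targets 4 fell and none rose, with between 3 and 5 falls on leaving out each library. Plk2, a stress-induced kinase, stood at 61.1, 55.3 and 57.7 CPM with RAS present and at 23.1, 22.5 and 24.7 CPM with RAS deleted, a change in log2 of -1.31 (SE 0.09, edgeR adjusted p 1.59e-09). The death receptor Fas fell by 1.61, while none of 20 apoptosis regulators was called and Mcl1, a survival factor, was lower by under 2-fold (-0.45). Of 28 glycolysis genes 2 rose, 7.14% of the list and near the share over all genes. The glucose transporter Slc2a1 went from 164, 101 and 119 CPM to 433, 433 and 324 CPM, without overlap, and 1 gene fell without RAS-present replicate 1, RAS-present replicate 3 or RAS-deleted replicate 3. None of 34 cholesterol and fatty acid synthesis genes reached a call, although 31 of 34 had a higher fitted value, with a median log2 change of 0.29 where that of all genes was 0. Scd2, a desaturase, was higher by 0.81 (SE 0.08, edgeR adjusted p 1.38e-07).

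Imprinted genes gave 5 rises and 2 falls in 32 tested, with 1 fall without RAS-present replicate 1 and none without RAS-deleted replicate 2. Mest, an enzyme of the hydrolase fold, stood at 48, 45.3 and 48.9 CPM against 136, 122 and 106 CPM. Peg3, a zinc finger factor, stood at 68.2, 73.9 and 99 CPM against 208, 204 and 188 CPM. Plagl1, another zinc finger factor, rose from 6.24, 5 and 3.75 CPM to 25.9, 24.6 and 10.4 CPM, and RAS-deleted replicate 3 lay well below the other two. Genes of the 2-cell-like state gave 4 falls in 16 tested, but 2 without RAS-present replicate 1, RAS-deleted replicate 2 or RAS-deleted replicate 3, and 1 without RAS-present replicate 2. Duxf3, of the Dux factors that activate that state, stood at 13, 14.9 and 9.21 CPM against 3.57, 2.98 and 2.07 CPM. It lies in a family of near-identical copies, so its own count is uncertain.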
